A study of Gorilla gorilla gorilla with 14 samples.

Results

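The genes described here are 37 imprinted genes, which in human or mouse are expressed mainly from the copy inherited from a single parent, in at least some tissues. They include PEG3, the DLK1 cluster with MEG3, MEG8 and RTL1, the IGF2 and KCNQ1 clusters with H19, CDKN1C, KCNQ1OT1 and PHLDA2, the SNRPN cluster with NDN, MAGEL2, MKRN3, UBE3A and ATP10A, and the neighbours PEG10 and SGCE. A region of open chromatin belongs to them where the deposited count table gives it a gorilla position and lists 1 of these genes as the closest. This gave 143 of 204249 regions, from 32 of the 37 genes. No region listed L3MBTL1, GNAS, ZIM2, SLC22A18 or RB1. Regions listed within 1000 bp of their gene are called promoter regions. There were 34 such regions among the 20663 in the table, from 30 genes, and KCNQ1 and WT1 had none. PEG3, MKRN3, NAP1L5 and PHLDA2 had 2 promoter regions each, and a region other than a gene's most covered promoter region is named by its distance ("PEG3 at 0 bp").

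Bulk ATAC-seq, whose transposase cuts and tags DNA that is free of packed nucleosomes, gave the accessibility values. The cells were sorted from gorilla cerebral organoids of 8 weeks, all made from GC1, an induced pluripotent stem cell line. The sorted groups were neurons (N, n = 4), basal intermediate progenitors (bIP, n = 5), basal radial glia (bRG, n = 2) and apical radial glia (aRG, n = 3). No group carried a treatment or an engineered allele, and all 14 libraries come from this 1 cell line. By their numbering in the labels the libraries fall into 2 blocks of 7, called series here. The second series holds N replicates 3 and 4, bIP replicates 4 and 5, the 2 bRG libraries and aRG replicate 3, and the first series holds N replicates 1 and 2, bIP replicates 1 to 3 and aRG replicates 1 and 2. The labels do not say how the series differ in culture or preparation, nor whether each library had a culture of its own, so that p-values measure the spread between these libraries only. Since bRG lies in the second series alone, bRG comparisons lean on the series term of the model.

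At an imprinted locus, an imprinting control region carries DNA methylation on the copy from a single parent, laid down in the germ line and kept after fertilisation. The promoter lying in such a region is silent on the methylated copy and active on the other, and noncoding RNAs or insulators spread that choice to neighbouring genes. In the developing brain, several of these genes are known regulators of growth and of neural progenitors. ATAC-seq counts from both parental copies were summed here, so neither the copy that was open nor methylation was measured. In bulk samples, more open cells and more opening per cell cannot be told apart.

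Levels are given in CPM, the counts of a region divided by the library total and a TMM scaling factor. Totals ran from 12834983 to 26660427 counts per library, and 3 counts, the limit used for detection, corresponded to 0.113 to 0.208 CPM. Marker promoters set neurons and intermediate progenitors apart from radial glia, but not bRG from aRG. All 8 tested radial glia marker promoters were lower in N than in aRG, and their summed level was 131 to 161 CPM in N, 197 to 314 in bIP, 373 to 411 in bRG and 447 to 516 in aRG. Neuron marker promoters were higher in N than in aRG in 6 of 7, and intermediate progenitor marker promoters were higher in bIP than in aRG in 4 of 7. None of 5 basal radial glia marker promoters passed for bRG against aRG by the edgeR quasi-likelihood test or DESeq2, 0 had an unadjusted p under 0.05, and their summed level was 94.6 to 110 CPM in bRG and 107 to 113 CPM in aRG. By the edgeR test 0 of all 200931 tested regions passed in this comparison, so a count of 0 would hold for any list. Of 6 pluripotent cell markers 2 had a tested promoter, 1 of them higher in the second series, and their summed level was 1.64 to 4.24 CPM in the second series and 1.38 to 4.14 CPM in the first. Of the 5 tested choroid plexus and hem markers, 3 were higher in the second series, with a summed level of 27.5 to 49.1 CPM in the second series and 23.2 to 34.3 CPM in the first. The others, AQP1 (log2 -0.45 ± 0.17) and CLIC6 (-0.24 ± 0.19, ± SE), went the other way without passing. Of all tested promoter regions 7.68% were higher and 4.2% lower in the second series. Of 7 tested mesenchyme markers 1 was higher in the second series (41.7 to 81.5 CPM summed in the second series, 36.1 to 72.7 CPM in the first). Of the 7 tested intermediate progenitor markers, EOMES (0.56 ± 0.13) and NEUROG1 (0.54 ± 0.13) were higher in the second series (log2 ± SE), with a summed level of 167 to 428 CPM in the second series and 164 to 324 CPM in the first, and of the 7 neuron markers TBR1 was (0.45 ± 0.14; 82.2 to 307 CPM summed in the second series, 75.6 to 249.8 CPM in the first). Of the 5 tested basal radial glia markers, TNC (0.45 ± 0.13) was higher in the second series and MOXD1 (-0.55 ± 0.17) lower. Of the 8 tested GABAergic markers only SST passed, higher (0.54 ± 0.17), while the median of the list was -0.08. Of the 5 tested markers of oligodendrocytes and astrocytes only S100B passed, lower (-1.06 ± 0.20), with a list median of -0.13. None of the 8 tested radial glia markers passed. The part of cells with any of these markers in the series differences below was not tested.

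PEG3, which encodes a zinc finger protein and is expressed from the paternal copy in human and mouse, was far more accessible in the second series in every cell type with libraries of both. Its promoter region at 605 bp (chr19:46654113-46655504 in gorGor6, 1392 bp) had 58.9 and 107 CPM in N, 102 and 114 in bIP, 76.5 and 68.3 in bRG and 93.1 in aRG in the second series. In the first series it had 0.351 and 0.815 CPM in N, 0.189, 0.194 and 0.416 in bIP and 0.276 and 0.312 in aRG. Every second-series library was far above every first-series library, whatever the cell type. The region at 2221 bp (chr19:46652905-46653884) had 28.8 and 46.6 CPM in N, 50.1 and 57.6 in bIP, 35.8 and 32.9 in bRG and 43.2 in aRG in the second series, against 0.117 to 0.499 CPM in the first. The promoter region at 0 bp (chr19:46656001-46656363) had 9.55 to 18.8 CPM in the second series, against 0 to 0.374 CPM in the first. The 3 regions lie within 3459 bp, and together they held 2025 to 3952 counts in a second-series library and 7 to 19 counts in a first-series library.

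**Figure D1:**
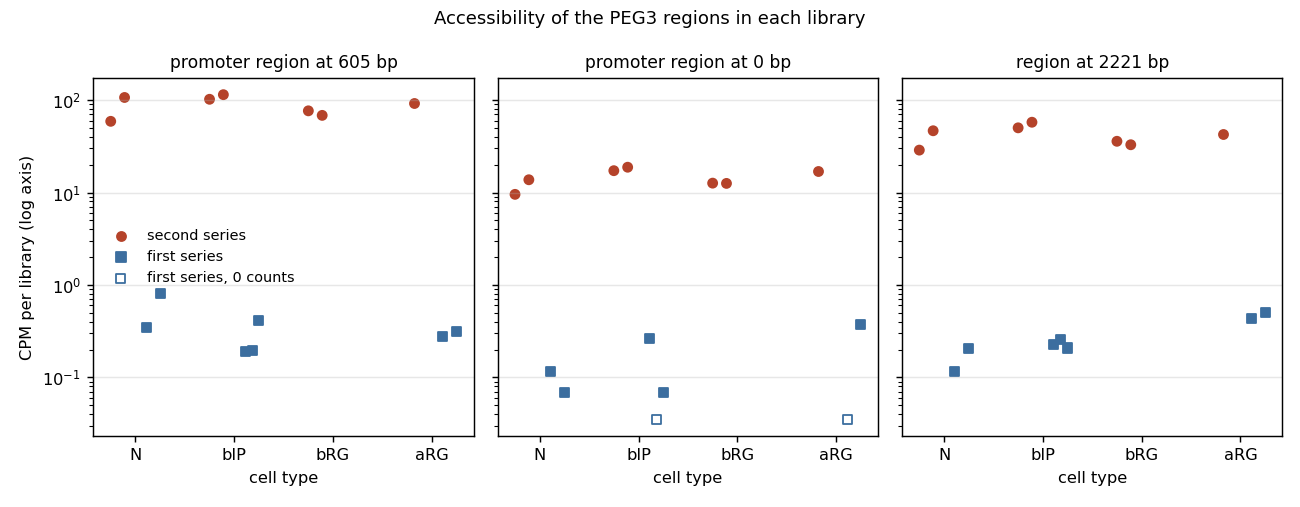
Accessibility of the 3 PEG3 regions, 1 panel each, in CPM per library on a log axis, by cell type, with second-series libraries as circles left of first-series libraries as squares; open squares are libraries with 0 counts. In the region at 605 bp the second-series libraries lie between 58.9 and 114 CPM and the first-series libraries between 0.189 and 0.815 CPM in every cell type, and bRG has no first-series library.

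Given cell type, the fitted log2 fold change of the second over the first series was 8.07, SE 0.24, adjusted p = 2.06e-17 at 605 bp, 7.39, SE 0.22, adjusted p = 2.06e-17 at 2221 bp and 6.87, SE 0.31, adjusted p = 1.94e-13 at 0 bp (edgeR quasi-likelihood test, adjusted by Benjamini and Hochberg over 200931 regions). These are the 3 largest increases of all 200931 regions tested, and no other region reached a log2 difference of 6. Only 11 regions, these 3 included, were higher by 4 or more, and 36 were lower by 4 or more, down to -5.37. Summed counts at 605 bp were 13054 in the second series and 47 in the first, a ratio per mapped count of 261 with a 95% exact interval of 196 to 355 that covers counting error only. The ratio was 160 (104 to 258) in N, 434 (259 to 795) in bIP and 321 (183 to 622) in aRG. Fitted within a cell type, the log2 change at 605 bp was 7.27 ± 0.37 in N, 8.72 ± 0.34 in bIP and 8.29 ± 0.41 in aRG (± SE), and the difference between N and bIP did not pass (adjusted p = 0.137). Over 22 settings of the series comparison the value at 605 bp stayed between 7.02 and 8.38, with a largest adjusted p of 0.000301.

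Between cell types the PEG3 regions did not pass the test in any of the 6 comparisons. For N against aRG the log2 fold change at 605 bp was 0.04 ± 0.30, for bIP against aRG 0.16 ± 0.30 and for N against bIP -0.12 ± 0.26 (± SE). The smallest adjusted p over the 3 regions was 0.0728, at 2221 bp for bIP against bRG (0.57 ± 0.25); that comparison and N against bIP were the ones with an unadjusted p under 0.05. Within the second series the levels at 605 bp followed no order of the cell types, and the range of the N libraries (58.9 to 107 CPM) took in the bRG libraries and the aRG library.

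Regions around PEG3 also stood higher in the second series. Of the 49 other tested regions within 250 kb, 42 were higher and none was lower, 85.7% called, where 15.9% of all 200931 regions were called in this comparison. Their median log2 change was 1.58. Around the other 29 genes with a promoter region, windows of the same size had 5.26% to 28.3% of their regions called and medians of -0.27 to 0.27. The window was chosen after the PEG3 values were known, so it is a description. To the left 16 of 21 were higher, and to the right 26 of 28. The largest change among these neighbours was 4.42 (SE 0.22), in a region 74.0 kb to the left with OR5AH1P listed as closest, which had a mean of 8.91 CPM in the second series and 0.406 CPM in the first.

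The raised stretch had clear limits in a wider view. Between -195 kb and +261 kb of the region at 605 bp lay all of the 45 regions that were higher within 300 kb, of 55 tested there besides those of PEG3. From 300 to 1000 kb to the right, none of 38 tested regions was higher and 1 was lower, with a median of -0.09. From 300 to 1000 kb to the left, 3 of 29 were higher and 4 lower, with a median of 0.06. The median change within 300 kb was 1.55 in N, 1.42 in bIP and 1.21 in aRG. The promoter of ZNF264, an imprinted zinc finger gene of this neighbourhood in human, lies 348 kb to the right and did not pass (log2 -0.09, adjusted p = 0.733).

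**Figure D2:**
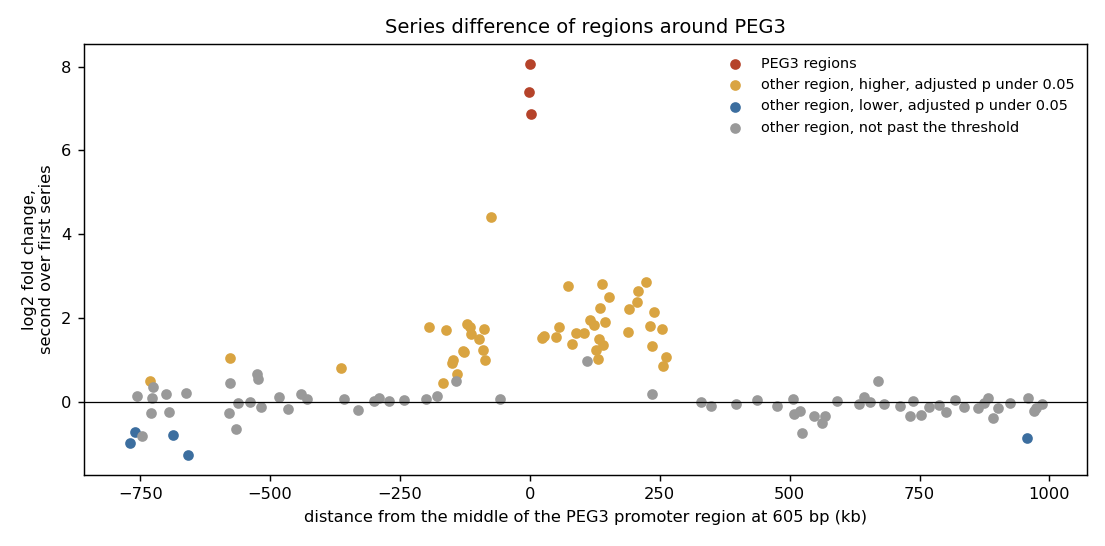
Log2 fold change of the second over the first series (vertical axis) for every tested region within 1000 kb of the PEG3 promoter region, by distance from its middle in kb (horizontal axis); each point is a region, coloured by whether it is a PEG3 region, called higher, called lower or not past the threshold. The PEG3 regions stand at 6.87 to 8.07, and other higher regions fill the stretch between -195 and +261 kb.

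The authors' consensus peak sets, of which there is 1 per cell type, did not all hold PEG3. The region at 605 bp was overlapped in the bIP and bRG sets, with deposited fold enrichments of 4.61 in bIP and 4.82 in bRG and −log10 q of 402 in bIP and 284 in bRG, and in neither the N nor the aRG set. The other 2 PEG3 regions showed the same. The aRG library at 93.1 CPM and the N libraries at 58.9 and 107 CPM thus had counts where their own set had no peak. How the consensus sets were built is not given in the sources used here. Among the 139 regions of these genes on chromosomes that the sets cover (ZDBF2, on chromosome 2B, is on none), peaks touched 55 in the N set, 62 in bIP, 65 in bRG and 62 in aRG. Of the 33 promoter regions there, 17 were touched in all 4 sets. The sets differ in size, with 152224 peaks in N, 169628 in bIP, 179137 in bRG and 162271 in aRG. The shares of all regions touched were not counted, so these counts do not describe a trait of the imprinted genes.

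The other imprinted genes differed far less between series. Of the 139 tested regions of all these genes, 26 were higher and 3 lower in the second series, 20.9% called against 15.9% of all regions. The 3 PEG3 regions are among the 26. The median log2 difference was 0.15 against 0.02 for all regions. Of 33 tested promoter regions 5 were higher, 2 of them of PEG3, and 1 was lower, 18.2% against 11.9% of all tested promoter regions. The 106 other regions, PEG3 at 2221 bp included, gave 21 higher and 2 lower, 21.7% against 16.3%. PEG3 raises each of these shares, and no difference between shares was tested. The higher promoters were the pair of PEG3, FAM50B, DLK1 and MEST, and the lower was HTR2A. The MEG3 promoter, at 0.0469 to 0.517 CPM in all libraries, was too low to be tested, as were 3 regions away from promoters.

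**Figure D3:**
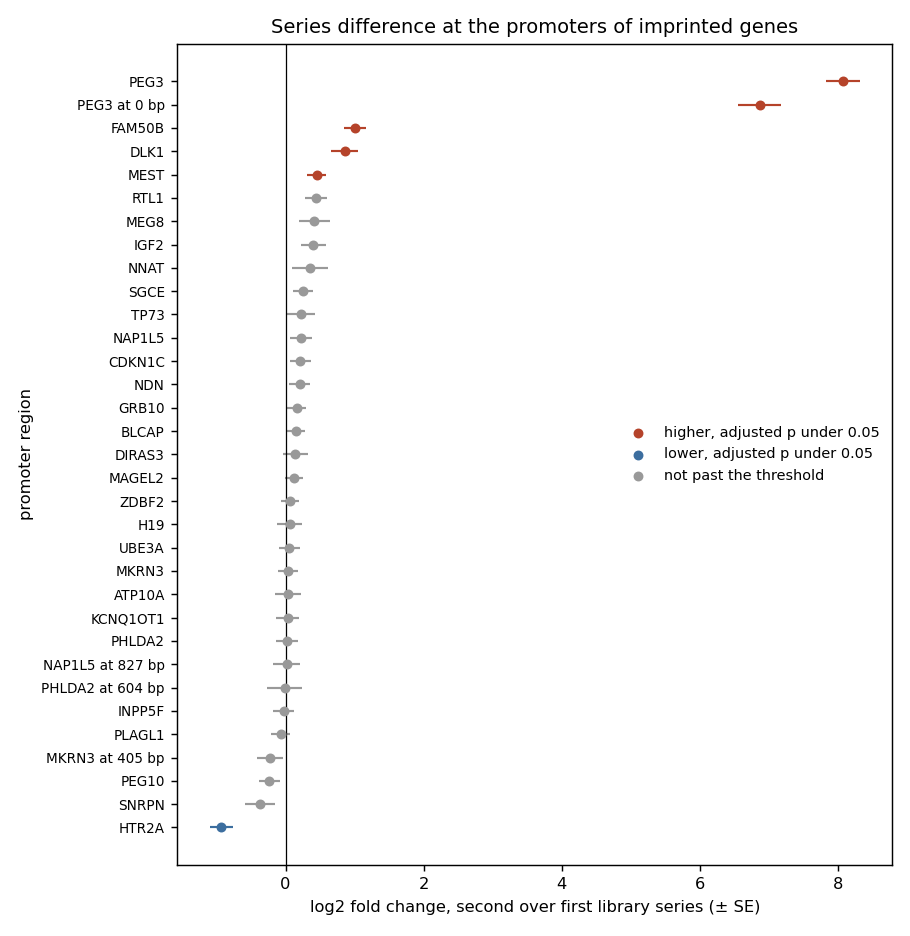
Log2 fold change of the second over the first series with its SE (horizontal axis) for the 33 tested promoter regions, ordered by size; red points were higher and blue points lower at an adjusted p under 0.05. The 2 PEG3 regions stand at 8.07 and 6.87, all others between -0.93 and 1.00.

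Libraries were left out 1 at a time in repeated fits, and a call described below as lost without several libraries was lost on leaving out each of them singly. FAM50B, an intron-less gene that is paternally expressed in human, ranged from 4.75 to 8.59 CPM (median 7.33) in the second series, against 2.92 to 4.36 CPM (median 4.01) in the first. Every second-series library was above every first-series library, and the log2 fold change was 1.00, SE 0.16, adjusted p = 0.000148. It was 1.08 ± 0.23 within bIP and 0.92 ± 0.27 within N. The N value passed with all libraries but not without N replicate 1 (adjusted p = 0.157) or N replicate 4 (adjusted p = 0.206).

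DLK1, a transmembrane relative of the Notch ligands, ranged from 2.53 to 6.94 CPM (median 4.32) in the second series, against 2.01 to 5.23 CPM (median 2.34) in the first at its promoter (chr14:81466440-81467226). In bIP the second-series libraries had 5.43 and 6.61 CPM, against 2.34, 2.07 and 2.50 CPM in the first series, with no overlap. The change was 0.86, SE 0.20, adjusted p = 0.00396 over all cell types and 1.38 ± 0.25 within bIP. Regions away from the promoter moved the same way. Of the 13 DLK1 regions 7 were higher and none was lower, at log2 differences of 0.64 to 1.01. Of all regions 9.37% were higher and 6.49% lower. Farther along the cluster, MEG3, a noncoding RNA, had 2 of 3 tested regions higher (0.67 at 4508 bp and 0.62 at 2823 bp). RTL1, a gene derived from a retrotransposon, passed within bIP only as a single call (0.69, SE 0.22, adjusted p = 0.0316), with 9.01 and 7.82 CPM in the second series and 5.48, 4.66 and 5.48 CPM in the first, and that call was lost without any 1 of the 5 bIP libraries (adjusted p = 0.055 to 0.141). MEG8, another noncoding RNA of the cluster, passed within N (1.02, SE 0.32, adjusted p = 0.0241), with 3.12 and 3.38 CPM in the second series and 1.99 and 1.09 CPM in the first, but not without N replicate 2 (adjusted p = 0.286).

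HTR2A, the serotonin 2A receptor gene, was lower in the second series. It had 3.26 and 3.00 CPM in N, 4.28 and 4.15 in bIP and 11.3 in aRG in the second series, against 4.95 and 5.91 CPM in N, 9.15, 8.15 and 4.99 in bIP and 27.5 and 27.1 in aRG in the first. Within each of these cell types the series did not overlap. The log2 fold change was -0.93, SE 0.17, adjusted p = 0.000435, and -1.27 ± 0.29 within aRG, where 1 library stands against 2. The separate calls within N and bIP (adjusted p = 0.039 and 0.0138) were lost without bIP replicate 2 or N replicates 1, 2 and 4 in N (adjusted p = 0.0536 to 0.237) and without bIP replicates 1, 2, 4 and 5 in bIP (adjusted p = 0.0624 to 0.118). In aRG the promoter region of MKRN3 at 405 bp, next to a gene for a ring finger protein tied to the timing of puberty, showed the same direction, with 6.66 CPM in the second series and 14.4 and 17.1 CPM in the first (-1.24, SE 0.29, adjusted p = 0.00995). MEST, a hydrolase gene expressed from the paternal copy, ranged from 16.1 to 31.9 CPM (median 26.9) in the second series, against 13.7 to 26.4 CPM (median 18.6) in the first (0.45, SE 0.13, adjusted p = 0.0227). Its call was lost without bIP replicates 2, 4 and 5 or N replicates 1 and 4 (adjusted p = 0.0511 to 0.074).

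Away from promoters, the region of MAGEL2 at 22579 bp (chr15:420730-421503) had the largest increase after PEG3, with 4.37 and 2.90 CPM in second-series bIP and 0.907, 1.55 and 1.04 CPM in first-series bIP (1.87, SE 0.32, adjusted p = 0.000231). MAGEL2 encodes a ubiquitin ligase cofactor of the SNRPN cluster. NNAT, a small membrane protein gene of neural tissue, had a region at 3329 bp (chr20:34772021-34773169) with 9.85 and 9.41 CPM in second-series bIP and 4.04, 3.43 and 4.16 CPM in first-series bIP (0.96, SE 0.17, adjusted p = 0.000478). Of the 10 SGCE regions, around a sarcoglycan gene, 6 were higher, at 0.65 to 1.28, beside 9.37% of all regions. The lower regions were GRB10 at 22527 bp (-0.63, SE 0.16, adjusted p = 0.0103) and WT1 at 44536 bp (-0.95, SE 0.29, adjusted p = 0.0271). GRB10 is an adaptor of insulin signalling, and its region ranged from 1.22 to 5.43 CPM (median 4.59) in the second series, against 2.22 to 9.0 CPM (median 6.79) in the first. WT1 is a zinc finger transcription factor, and its region ranged from 0.188 to 1.13 CPM (median 0.483) in the second series, against 0.647 to 1.62 CPM (median 0.971) in the first. The series overlapped in both, which take their calls from differences within cell types. The WT1 call was lost without bIP replicate 4 or N replicates 1, 2 and 4 (adjusted p = 0.0513 to 0.0658).

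Within single cell types the counts of called regions, with the 3 PEG3 regions included in each, were as follows. In N, 15 of 139 regions were higher and 6 lower in the second series, 15.1% against 15.5% of all regions. This count is 10 without N replicate 2 and 34 without N replicate 3. In bIP 26 were higher and 2 lower, 20.1% against 14% of all regions, with 18 called without bIP replicate 2, 11 without bIP replicate 5 and 46 without N replicate 3 or 4, which share the estimate of spread. In aRG, where the second series has 1 library, 6 were higher and 2 lower, 5.76% against 3.43%. The median change of all tested promoter regions was -0.18 in N, 0.22 in bIP and -0.01 in aRG, and that of the promoter regions of these genes -0.08 in N, 0.35 in bIP and 0.13 in aRG. The change differed between N and bIP in 12 regions, 3 more positive and 9 more negative in N, 8.63% against 8.32% of all regions by a test of the difference. That count is 7 without bIP replicate 1, 6 without bIP replicate 3, 3 without bIP replicate 5, 4 without N replicate 2 and 28 without N replicate 4. In N the increases with the smallest p-values after PEG3, promoters aside, were SGCE at 27140 bp (2.41 ± 0.33) and SGCE at 6956 bp (1.67 ± 0.35), the SGCE region at 6956 bp losing its call without N replicate 2 (adjusted p = 0.0599). KCNQ1OT1 at 34577 bp (-1.83 ± 0.36), INPP5F at 18623 bp (-1.06 ± 0.22) and KCNQ1 at 77413 bp (-1.39 ± 0.31) were the decreases with the smallest p-values in N (log2 ± SE). In bIP those increases were HTR2A at 99227 bp (2.13 ± 0.31) and NNAT at 3329 bp (1.31 ± 0.22). FAM50B at 19007 bp was lower in bIP (-0.97, SE 0.34, adjusted p = 0.049), a call lost without bIP replicates 1, 2, 4 and 5 or N replicates 1 and 2 (adjusted p = 0.0546 to 0.312). In aRG the increases were INPP5F at 18623 bp (1.81 ± 0.41) and KCNQ1OT1 at 7939 bp (1.62 ± 0.38). In the second-series aRG library the markers NEUROD2 (1.48 ± 0.32), LMX1A, of choroid plexus and hem (1.35 ± 0.30), and EOMES (0.95 ± 0.25) stood higher. NEUROD2 had 6.86 CPM against 2.57 and 2.31 CPM in the first series and EOMES 46.3 CPM against 22.3 and 25.7 CPM. INSM1 (-0.72 ± 0.30), BCL11B (-0.46 ± 0.27) and SYT4 (-0.25 ± 0.30), of the same neuron and intermediate progenitor lists, went the other way. The median change in aRG was 0.46 over the 7 tested neuron markers, 0.31 over the 7 of intermediate progenitors and 0.51 over the 5 of choroid plexus and hem. In bIP, EOMES (0.56 ± 0.19), NEUROG1 (0.57 ± 0.20) and TBR1 (0.69 ± 0.19) were higher in the second series. Markers of other cells were higher there too, namely HES1 of radial glia (0.65 ± 0.19), GAD2 (0.67 ± 0.20), LMX1A (0.88 ± 0.24), RSPO2 (0.64 ± 0.20) and PDGFRA (0.67 ± 0.22). S100B was lower (-1.37 ± 0.28). The higher ones were 1 of 8 tested radial glia markers and 1 of 8 GABAergic markers. Of choroid plexus and hem markers 2 of 5 were higher, and of mesenchyme markers 1 of 7. Among all tested promoter regions 9.33% were higher and 2.48% lower in bIP. The part of cells with these markers in the changes within aRG and bIP was not tested.

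Between cell types, the called share of the imprinted genes' regions is given beside that of all regions, and no difference between such shares was tested. For N against aRG, 35 regions were higher and 35 lower of 139, 50.4% against 66.4% of all regions; DESeq2 with its own size factors gave 29 higher and 45 lower. For N against bIP, 29 were higher and 40 lower, 49.6% against 55.2%, and for N against bRG 34 and 33, 48.2% against 58.1%. For bIP against aRG, 29 were higher and 33 lower, 44.6% against 44.9%, and for bIP against bRG 29 and 19, 34.5% against 36.5%, the last count being 24 without bRG replicate 1 and 30 without bRG replicate 2. For bRG against aRG no region was called by the edgeR quasi-likelihood test, among these genes or among all 200931 (0% called); 4 of the 139 had an unadjusted p under 0.05, as had 8193 of all regions, and DESeq2 called none of the 139.

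Promoter regions and regions away from them were also counted apart. For N against aRG 6 of 33 promoter regions were higher and 5 lower, 33.3% against 52.3% of all tested promoter regions. For N against bIP the counts were 4 and 6 (30.3% against 37.2%), for N against bRG 5 and 4 (27.3% against 38.3%), for bIP against aRG 1 and 4 (15.2% against 29.9%) and for bIP against bRG 2 and 3 (15.2% against 21%). Of the 33 promoter regions 17 passed in no cell type comparison and 14 passed in 2 or more. The matching shares over all tested promoter regions were not counted, so these counts have no background beside them. Of the 106 tested regions away from promoters, 29 were higher and 30 lower for N against aRG (55.7% against 68% of all such regions), 25 and 34 for N against bIP (55.7% against 57.2%), and 29 and 29 for N against bRG (54.7% against 60.3%). For bIP against aRG the counts were 28 and 29 (53.8% against 46.6%) and for bIP against bRG 27 and 16 (40.6% against 38.3%). The shares for N against bIP and for bIP against bRG lay close to those of all such regions. No difference between shares was tested.

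**Figure D4:**
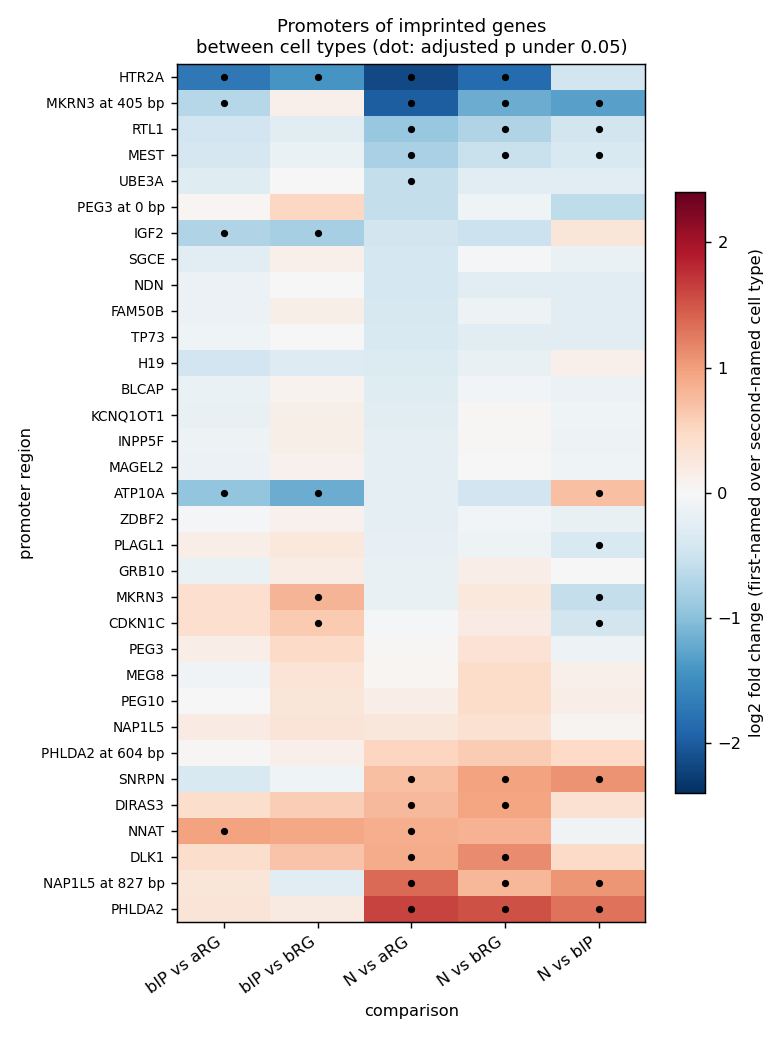
Log2 fold changes of the 33 tested promoter regions (rows) in 5 comparisons of cell types (columns), coloured from blue (lower in the first-named type) to red (higher), with a black dot where the adjusted p is under 0.05. HTR2A and MKRN3 at 405 bp are the most negative in N against aRG (-2.16 and -1.99), and PHLDA2 and NAP1L5 at 827 bp the most positive (1.63 and 1.35).

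HTR2A had the largest promoter decrease. It had 4.95, 5.91, 3.26 and 3.00 CPM in the 4 N libraries, 9.15, 8.15, 4.99, 4.28 and 4.15 in the 5 bIP libraries, 10.6 and 11 in the 2 bRG libraries and 27.5, 27.1 and 11.3 in the 3 aRG libraries. All N libraries were below all bRG and aRG libraries, and the first-series aRG libraries stood well above the aRG library of the second series. The log2 fold change was -2.16, SE 0.21, adjusted p = 1.94e-09 for N against aRG, -1.86 ± 0.24 for N against bRG, -1.72 ± 0.19 for bIP against aRG and -1.41 ± 0.24 for bIP against bRG (± SE), while N against bIP did not pass (-0.44 ± 0.19, adjusted p = 0.0503). Its promoter region (chr13:27242405-27243510) was touched by a peak in 3 of the 4 consensus sets.

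MKRN3 had a pair of promoter regions that differed in pattern. The region at 405 bp (chr15:360720-361211) had 2.69, 2.78, 2.88 and 3.75 CPM in N, 8.17, 8.15, 7.07, 7.46 and 7.53 in bIP, 6.77 and 6.09 in bRG and 14.4, 17.1 and 6.66 in aRG. The N libraries lay below all others. The change was -1.99, SE 0.25, adjusted p = 1.29e-07 for N against aRG, -1.31 ± 0.22 for N against bIP and -1.19 ± 0.28 for N against bRG. For bIP against aRG it was -0.68, SE 0.22, adjusted p = 0.0134, a call that rests on the first series, since it was lost without aRG replicate 1 or 2 (adjusted p = 0.0528 to 0.067) and had the other sign within the second series (0.17). The region at the listed start of MKRN3 (chr15:361309-362611) had 18.7, 22.2, 12.5 and 21.7 CPM in N, 29.0, 26.0, 22.0, 29.4 and 32.9 in bIP, 16.6 and 15.5 in bRG and 20.7, 21.3 and 21.4 in aRG. It was higher in bIP than in bRG and N, while bIP against aRG did not pass (0.40 ± 0.19, adjusted p = 0.0857). The change was 0.82, SE 0.23, adjusted p = 0.00673 for bIP against bRG and -0.57, SE 0.17, adjusted p = 0.00586 for N against bIP; the bRG call was lost without bRG replicates 1 and 2 or bIP replicate 4 (adjusted p = 0.0513 to 0.0815).

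MEST and RTL1 had lower promoters in N. MEST had 13.7, 16.8, 16.1 and 23.1 CPM in N, 19.7, 18.6, 16.4, 26.9 and 28.9 in bIP, 31.5 and 26.9 in bRG and 26.0, 26.4 and 31.9 in aRG, and fell in N against aRG (-0.78, SE 0.18, adjusted p = 0.000385). RTL1 had 3.43, 5.50, 4.75 and 5.86 CPM in N, 5.48, 4.66, 5.48, 9.01 and 7.82 in bIP, 8.74 and 9.79 in bRG and 7.66, 8.73 and 9.51 in aRG, and fell likewise (-0.91, SE 0.21, adjusted p = 0.000442). For both genes all aRG and bRG libraries were above all N libraries, and above the first-series bIP libraries. The smaller changes of N against bIP were -0.37, SE 0.16, adjusted p = 0.0433 for MEST and -0.44, SE 0.19, adjusted p = 0.0459 for RTL1, and each was lost on leaving out any 1 of 9 libraries (for MEST aRG replicate 1, bRG replicates 1 and 2, bIP replicates 1, 2, 4 and 5 or N replicates 1 and 3, for RTL1 aRG replicate 1, bRG replicates 1 and 2, bIP replicates 1, 3, 4 and 5 or N replicates 1 and 3; adjusted p up to 0.127 and 0.163). For N against bRG, MEST (-0.53 ± 0.21) lost its call without bRG replicates 1 and 2 or N replicate 1 (adjusted p = 0.0539 to 0.225), and RTL1 (-0.72 ± 0.24) without bRG replicate 2 (adjusted p = 0.106). UBE3A, the ubiquitin ligase gene whose maternal copy is the active one in human neurons, had 24.8 to 48.8 CPM in N and 48.1, 56.4 and 55.6 CPM in aRG (-0.57, SE 0.20, adjusted p = 0.0134). That call was lost without aRG replicate 3 (adjusted p = 0.0538).

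ATP10A and IGF2 were lower in bIP than in either type of radial glia. ATP10A, a lipid flippase gene at the edge of the SNRPN cluster, had 4.87, 7.06, 3.55 and 8.02 CPM in N, 4.12, 3.49, 2.70, 3.31 and 3.91 in bIP, 8.49 and 7.82 in bRG and 6.32, 6.98 and 7.10 in aRG. The bIP libraries lay below all bRG and aRG libraries. The change was -0.95, SE 0.23, adjusted p = 0.0012 for bIP against aRG and -1.19, SE 0.28, adjusted p = 0.00122 for bIP against bRG. For N against bIP it was 0.72, SE 0.21, adjusted p = 0.00548, which was lost without N replicate 4 (adjusted p = 0.0605). IGF2, an insulin-like growth factor gene of fetal growth, had 2.10, 3.12, 3.46 and 2.49 CPM in N, 1.81, 1.88, 2.15, 3.09 and 2.22 in bIP, 4.24 and 4.82 in bRG and 3.32, 2.87 and 4.61 in aRG. It was lower in bIP than in aRG (-0.72, SE 0.22, adjusted p = 0.00981), a call lost without aRG replicate 3 (adjusted p = 0.0725), and than in bRG (-0.80, SE 0.27, adjusted p = 0.0192), a call lost without bRG replicates 1 and 2 or bIP replicate 5 (adjusted p = 0.0606 to 0.15). N against bIP did not pass for IGF2 (0.28 ± 0.21, adjusted p = 0.265), and their libraries overlapped. H19, the noncoding RNA gene beside IGF2, had a promoter at 1.62 to 3.04 CPM and passed in no comparison.

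Higher promoter regions in N included those listed for PHLDA2, SNRPN, NAP1L5 (at 827 bp), DLK1 and DIRAS3. PHLDA2, a pleckstrin-homology gene that restrains placental growth in mouse, had 7.05, 8.96, 6.38 and 9.05 CPM in N, 3.40, 3.04, 3.26, 3.22 and 2.85 in bIP, 2.88 and 2.58 in bRG and 2.29, 2.37 and 2.94 in aRG. All N libraries stood above all others. The change was 1.63, SE 0.22, adjusted p = 4.11e-07 for N against aRG, 1.53 ± 0.26 for N against bRG and 1.31 ± 0.18 for N against bIP. NAP1L5, a paternally expressed gene related to nucleosome assembly proteins, had 3.58, 2.92, 3.17 and 3.70 CPM in N, 1.78, 1.55, 1.87, 1.41 and 1.40 in bIP, 1.92 and 1.97 in bRG and 1.38, 0.873 and 1.62 in aRG in its region at 827 bp. All N libraries were again above all others (1.35, SE 0.26, adjusted p = 6.53e-05 for N against aRG and 1.07 ± 0.22 for N against bIP). Its change for N against bRG (0.79 ± 0.30) was lost without aRG replicate 2, bRG replicates 1 and 2, bIP replicate 4 or N replicates 3 and 4 (adjusted p = 0.0552 to 0.119). The more covered region at the listed start of NAP1L5 had 8.46 to 15.0 CPM over the 14 libraries and passed in no comparison.

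SNRPN, which encodes a splicing protein of neurons and heads the cluster lost in Prader-Willi syndrome, had 2.42, 2.72, 1.78 and 1.74 CPM in N, 1.02, 1.16, 0.901, 1.19 and 0.820 in bIP, 0.909 and 0.983 in bRG and 1.34, 1.81 and 0.980 in aRG in its listed promoter. N exceeded bIP without overlap (1.08, SE 0.24, adjusted p = 0.00043), whereas N overlapped aRG (0.72, SE 0.27, adjusted p = 0.0225). The aRG call was lost without aRG replicates 1, 2 and 3, bIP replicate 4 or N replicates 2, 3 and 4 (adjusted p = 0.0541 to 0.116), and that for N against bRG (0.97 ± 0.34) without bRG replicates 1 and 2 or bIP replicate 4 (adjusted p = 0.0644 to 0.104). This SNRPN region held only 13 to 62 counts per library. The promoter of SNURF, from the list of other imprinted genes below, did not pass for N against bRG (0.04 ± 0.25). DLK1 had 3.97, 5.23, 4.32 and 6.94 CPM in N, 2.34, 2.07, 2.50, 5.43 and 6.61 in bIP, 2.53 and 3.70 in bRG and 2.01, 2.18 and 3.58 in aRG. It rose in N against aRG (0.89, SE 0.27, adjusted p = 0.00501) and against bRG (1.13, SE 0.32, adjusted p = 0.00331), the second of these lost without bRG replicate 1 (adjusted p = 0.0774). DIRAS3, a small GTPase gene with growth-inhibiting effects, had 8.57, 9.37, 5.76 and 10.1 CPM in N, 6.20, 5.56, 4.44, 7.91 and 8.69 in bIP, 4.75 and 4.49 in bRG and 4.78, 5.55 and 4.21 in aRG. Its increase was 0.78, SE 0.24, adjusted p = 0.00577 against aRG and 0.94, SE 0.29, adjusted p = 0.00689 against bRG. These calls were lost without aRG replicate 3 or N replicate 4 for aRG (adjusted p = 0.0561 to 0.0662) and without bRG replicate 2 or N replicate 4 for bRG (adjusted p = 0.0623 to 0.0626).

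**Figure D5:**
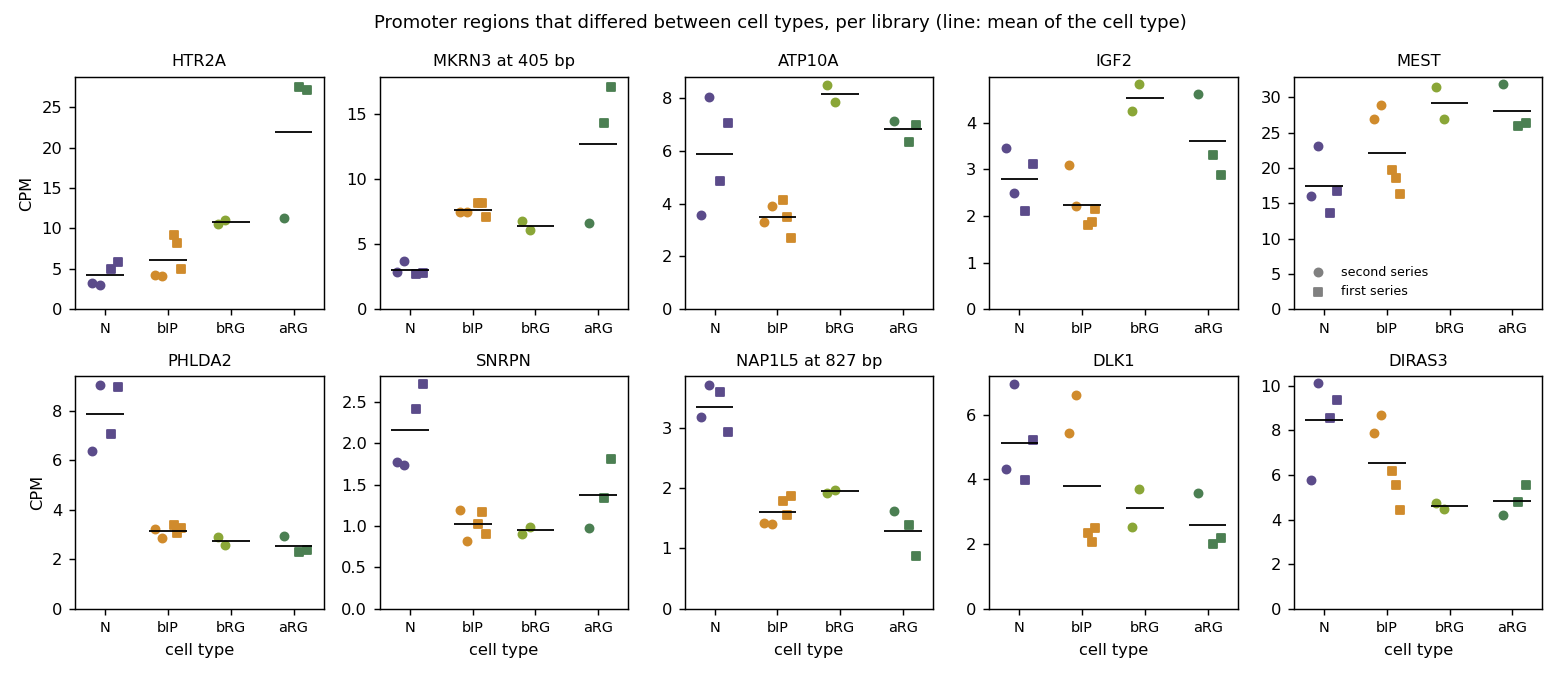
CPM per library (vertical axes, from 0) of 10 promoter regions by cell type, with circles for the second series, squares for the first and a line at the mean of the cell type. The top row holds regions that were lower in N or bIP, led by HTR2A with N libraries at 3.00 to 5.91 CPM and aRG libraries at 11.3 to 27.5 CPM, and the bottom row regions that were higher in N, led by PHLDA2 with N libraries at 6.38 to 9.05 CPM and aRG libraries at 2.29 to 2.94 CPM.

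The remaining 3 promoters passed with small margins. CDKN1C, an inhibitor of cyclin-dependent kinases that slows progenitor division, had 25.6, 37.4, 21.6 and 30.2 CPM in N, 34.1, 36.4, 27.9, 42.6 and 53.9 in bIP, 27.1 and 27.5 in bRG and 24.7, 29.0 and 33.4 in aRG. It was higher in bIP than in bRG (0.63, SE 0.24, adjusted p = 0.046) and lower in N than in bIP (-0.44, SE 0.18, adjusted p = 0.042). The first of these calls was lost on leaving out any 1 of 11 libraries (aRG replicates 1, 2 and 3, bRG replicates 1 and 2, bIP replicates 1, 2, 4 and 5 or N replicates 1 and 4; adjusted p = 0.0569 to 0.203) and the second any 1 of 10 (aRG replicate 1, bRG replicates 1 and 2, bIP replicates 1, 2, 4 and 5 or N replicates 1, 3 and 4; adjusted p = 0.0522 to 0.144). NNAT had 0.623, 1.36, 1.49 and 0.844 CPM in N, 0.794, 0.906, 1.11, 1.10 and 1.59 in bIP, 0.707 and 0.609 in bRG and 0.632, 0.436 and 0.539 in aRG at its promoter, and was higher in N (0.87, SE 0.37, adjusted p = 0.039) and bIP (0.96, SE 0.35, adjusted p = 0.0281) than in aRG, each lost without any 1 of 5 libraries (aRG replicates 2 and 3, bIP replicate 4 or N replicates 2 and 3 for N; aRG replicates 2 and 3, bIP replicates 4 and 5 or N replicate 4 for bIP; adjusted p up to 0.211 and 0.158). PLAGL1, a zinc finger regulator of other imprinted genes in mouse, was lower in N than in bIP (-0.37, SE 0.16, adjusted p = 0.0495), with 13.9 to 23.2 CPM in N and 21.1 to 26.8 CPM in bIP, and was lost without aRG replicates 1, 2 and 3, bRG replicates 1 and 2, bIP replicates 1, 2, 4 and 5 or N replicates 1, 3 and 4 (adjusted p = 0.0538 to 0.1).

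The 17 promoter regions that passed in no cell type comparison spanned a wide range of levels. INPP5F, a phosphoinositide phosphatase gene, had 34.1 to 64.4 CPM over the 14 libraries. PEG10, a retrotransposon-derived gene, had 29.9 to 62.9 CPM, and SGCE, whose promoter region lies 57 bp from that of PEG10, 13.8 to 26.5 CPM. ZDBF2, a zinc finger gene, had 23.6 to 37.0 CPM, KCNQ1OT1, the antisense noncoding RNA that silences its cluster in cis, 15.6 to 34.6 CPM, and BLCAP, the host gene of NNAT, 20.1 to 33.4 CPM. GRB10, MAGEL2, NDN, NAP1L5, TP73, H19, MEG8, FAM50B, PHLDA2 at 604 bp and the pair of PEG3 make up the rest. MAGEL2 (13.2 to 18.7 CPM) and NDN (5.95 to 12.2 CPM), both genes of the MAGE family in the SNRPN cluster, thus passed nowhere, while MKRN3, SNRPN, UBE3A and ATP10A of the same cluster each passed somewhere; the difference between these genes was not tested.

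The largest cell type differences lay away from promoters. SGCE at 67287 bp (chr7:77422722-77424003) had 2.10, 1.56, 2.93 and 0.985 CPM in N, 6.99, 7.24, 4.92, 8.57 and 3.52 in bIP, 32.4 and 27.7 in bRG and 46.2, 45.3 and 31.3 in aRG. It was lower in N than in aRG by a log2 fold change of -4.37, SE 0.29, adjusted p = 9.81e-12, and was lower in bIP than in aRG by -2.68 ± 0.24. SGCE at 45767 bp (chr7:77401424-77402548), in the same neighbourhood, went the other way, with 4.75, 4.89, 4.13 and 9.38 CPM in N, 0.718, 0.970, 0.624, 0.530 and 0.676 in bIP, 0.505 and 0.328 in bRG and 0.868, 0.810 and 0.588 in aRG (3.81, SE 0.44, adjusted p = 5.49e-08 for N against bRG). N libraries were above all others there, and below all others at 67287 bp. Of the 10 SGCE regions 4 were higher and 4 lower in N than in aRG, where 37.1% of all regions were higher and 29.2% lower.

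INPP5F and FAM50B each had a region that was higher in N and in bIP than in either type of radial glia. INPP5F at 18623 bp (chr10:114990515-114991507) had 18.1, 20.5, 7.82 and 10.7 CPM in N, 11, 10.2, 11.1, 10.9 and 14.8 in bIP, 1.31 and 1.12 in bRG and 0.553, 0.623 and 2.06 in aRG, so that N and bIP libraries were all above bRG and aRG (3.71, SE 0.38, adjusted p = 4.96e-09 for N against aRG and 3.42 ± 0.37 for bIP against aRG). FAM50B at 8112 bp (chr6:3800899-3802277) had 6.58, 5.30, 4.80 and 7.88 CPM in N, 1.85, 2.26, 2.29, 1.46 and 1.83 in bIP, 0.859 and 0.843 in bRG and 0.908, 0.686 and 0.784 in aRG (2.95, SE 0.28, adjusted p = 1.44e-09 for N against aRG). INPP5F at 8759 bp fell in N against bIP (-1.29 ± 0.19). ZDBF2 lost accessibility at 62026 bp (chr2B:93167085-93167869), with 0.740, 0.543, 1.34 and 0.844 CPM in N, 1.44, 1.62, 1.53, 1.94 and 1.11 in bIP, 6.16 and 4.87 in bRG and 5.25, 5.86 and 5.59 in aRG (-2.70, SE 0.27, adjusted p = 3.44e-09 for N against aRG), and at 54214 bp (-3.16 ± 0.37 for N against bRG).

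DLK1 and NNAT had regions that were more open in bIP and N than in either type of radial glia. DLK1 at 8935 bp (chr14:81456742-81457903) had 7.44, 8.28, 8.26 and 13.7 CPM in N, 16.8, 13.2, 15.8, 26.4 and 32.8 in bIP, 3.54 and 4.12 in bRG and 1.66, 2.12 and 4.26 in aRG. It was higher in bIP than in aRG (2.94, SE 0.23, adjusted p = 8.13e-10) and than in bRG (2.88 ± 0.28). Of the 13 DLK1 regions 6 were higher and 3 lower in bIP than in aRG, where 24% of all regions were higher and 20.9% lower. For N against bIP 1 was higher and 7 lower, where 28.8% of all regions were higher and 26.4% lower. Among the lower was DLK1 at 38478 bp (-1.65 ± 0.23). NNAT at 3329 bp had 4.75, 4.62, 5.71 and 7.55 CPM in N, 4.04, 3.43, 4.16, 9.85 and 9.41 in bIP, 1.16 and 1.5 in bRG and 0.790, 0.748 and 1.57 in aRG (2.46, SE 0.25, adjusted p = 1.99e-08 for bIP against aRG and 2.34 ± 0.26 for N against aRG). Beside the shares of all regions just given, KCNQ1OT1 had 4 of 7 regions higher and 1 lower in bIP than in aRG. It had none higher and 6 lower in N than in bIP. Its region at 34577 bp had 2.49, 3.73, 1.15 and 0.563 CPM in N, 10.5, 10.2, 9.78, 7.60 and 9.70 in bIP, 1.72 and 1.22 in bRG and 0.908, 0.374 and 1.96 in aRG. TP73 at 5092 bp, near a gene of the p53 family, had 2.49, 1.75, 2.08, 4.11 and 3.57 CPM in bIP and 0.354 and 0.375 CPM in bRG (3.10, SE 0.41, adjusted p = 1.88e-06).

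SGCE at 12627 bp was also lower in N and bIP (-2.57 ± 0.28 for N against aRG and -1.84 ± 0.25 for bIP against aRG). GRB10 at 22527 bp was lower in N, with 2.22, 2.99, 1.82 and 1.22 CPM in N, 9.0, 7.57, 6.45, 5.43 and 5.02 in bIP, 4.60 and 4.59 in bRG and 6.79, 6.92 and 4.46 in aRG (-1.67, SE 0.20, adjusted p = 8.31e-08 for N against bIP). For that region bIP against bRG did not pass (0.14 ± 0.25). For N against aRG, 5 of 8 GRB10 regions were lower and none was higher, where 29.2% of all regions were lower and 37.1% higher. HTR2A, with 12 tested regions, had 4 higher and 5 lower. Its region at 189722 bp had 4.75, 2.24, 1.82 and 3.99 CPM in N, 0.378, 0.582, 0.347, 0.221 and 0.338 in bIP, 0.758 and 0.655 in bRG and 0.711, 0.436 and 0.784 in aRG (3.15, SE 0.33, adjusted p = 1.38e-08 for N against bIP). WT1, with regions but no promoter region, had 2 of 3 lower in N and 3 of 3 lower in bIP than in aRG. Of all regions 29.2% were lower in N and 20.9% lower in bIP than in aRG.

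Other imprinted genes, 61 in a list kept apart from these 37, had a tested promoter in 40 cases. In the series comparison 3 were higher and 2 lower (12.5%, against 11.9% of all tested promoter regions), with a median of 0.02. They were KCNQ1DN (0.59 ± 0.13), LRRTM1 (0.58 ± 0.14) and SMOC1 (0.52 ± 0.15) upward, and KCNK9, a potassium channel gene (-0.91 ± 0.19), and AXL, a receptor tyrosine kinase gene (-0.72 ± 0.16), downward (log2 ± SE). The SMOC1 call was lost without aRG replicate 3 or bIP replicate 4 or 5. None came near the size of PEG3. For N against aRG 7 were higher and 12 lower, 47.5% against 52.3% of all tested promoter regions. MEG9, a noncoding RNA gene of the DLK1 cluster, had 18.4, 19.0, 5.71 and 10.3 CPM in N and 0.987, 0.873 and 2.84 CPM in aRG (3.04, SE 0.37, adjusted p = 1.11e-07). This difference was 1.49 in the second series alone, 4.33 in the first series alone and 4.04 without aRG replicate 3. The second series was lower for MEG9 within N (-1.23, SE 0.24, adjusted p = 0.000608) and higher within aRG (1.59, SE 0.40, adjusted p = 0.0188); the difference between these changes was not tested. AXL had 5.53, 4.75, 2.59 and 1.83 CPM in N and 30.9, 35.7 and 22.2 CPM in aRG (-2.95, SE 0.21, adjusted p = 2.19e-11), and GPR1 (-3.47 ± 0.27) and ASCL2, a transcription factor gene (1.72 ± 0.26), also passed.

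Genes that set or keep DNA methylation imprints had a tested promoter in 14 of 20 cases. None passed in the comparison of the series by the edgeR quasi-likelihood test, over all cell types or within N, bIP or aRG, with a median log2 difference of 0.03 over all cell types. An unadjusted p under 0.05 was met by 0 over all cell types, 1 in N, 3 in bIP and 0 in aRG, and DESeq2 called 2 in bIP and 0 in the other 3. In the edgeR series comparison 11.9% of all tested promoter regions passed over all cell types, 9.86% within N and 11.8% within bIP. Between cell types no member of this list was higher, where 0% (bRG against aRG) to 17.2% (N against aRG) of all tested promoter regions were. For N against aRG 8 of 14 were lower (57.1%) and none higher, with a median of -0.54. Among all tested promoter regions 35.1% were lower and 17.2% higher in that comparison, with a median of -0.26. TET1, which oxidises methylated cytosine, had 15.9, 16.9, 15.7 and 15.8 CPM in N and 37.1, 39.9 and 42.9 CPM in aRG (-1.34, SE 0.17, adjusted p = 1.12e-07). DNMT3A, a de novo methyltransferase, fell likewise (-1.22, SE 0.19, adjusted p = 2.76e-06), as did DNMT3B (-1.03 ± 0.20), HELLS (-1.05 ± 0.17), UHRF1 (-0.81 ± 0.18), TET2 (-0.69 ± 0.19), CTCF (-0.65 ± 0.20) and SETDB1 (-0.44 ± 0.19). The SETDB1 call was lost without any 1 of 7 libraries (aRG replicates 1 and 3, bRG replicates 1 and 2, bIP replicates 1 and 2 and N replicate 1).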

How the data were processed

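Open chromatin was profiled by bulk ATAC-seq in 14 gorilla libraries, sorted by flow cytometry into 4 cell types. The deposited counts are the authors' whole-number read counts per region, in a table that joins species and carries gorilla coordinates (gorGor6), the closest gene and its distance, per the file headers. Per the labels' protocols, transposed DNA was size-selected before sequencing. The submitters' processing notes name bcl2fastq 2.20.0, MACS2, hg38 and panTro6. No source used here names the aligner or the counting rule. The deposited consensus peak sets, 1 per cell type, give the authors' peak score, their fold enrichment over background as a ratio, and −log10 of the q-value; how libraries were joined into a set is not stated. The sets cover no chromosome 2A or 2B.

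Of 218080 regions, 13823 had no gorilla position and 0 counts in these libraries, and 8 repeated another; they were left out. The other 204249 were counted, and 200931 passed edgeR's filterByExpr. The tests used edgeR 4.0.16 under R 4.3.3 (quasi-likelihood, TMM factors, dispersion trend from every 5th region) in a model with cell type and library series (9 residual degrees of freedom). Changes of the series within a cell type came from a model with 7 means of cell type and series (7 residual degrees of freedom). The Benjamini-Hochberg adjustment ran over the 200931 tested regions, and an adjusted p under 0.05 counts as called. Libraries of the same cell type and series differed by 1.07 to 6.05 times sampling noise (chi-square over degrees of freedom), those of different series by 5.13 to 10.8 times. The closest pairs were aRG replicates 1 and 2 (1.07) and bIP replicates 1 and 2 (1.11). These pairs differed by little more than sampling noise, and the labels do not say whether they had separate cultures. No pair was merged, so the tests count each library as a replicate. A test on simulated counts was run first. A peak touched a region where they shared at least 1 bp.

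Alternatives were other normalizations, filters, DESeq2 1.42.0, a replicate block, each series alone, and each library left out. The members and gene lists were chosen with earlier results of these data known. Named genes follow a rule: promoter regions that passed in any series comparison or in 2 or more cell type comparisons are given by library, the others by range, and of the other regions the 3 with the smallest p in each direction. Regions named beyond that rule were chosen after their values were seen. The surroundings of PEG3 beyond 250 kb were likewise chosen after the values were seen. No genome of this build was used here, so no sequences are printed.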

Additional observations from a re-analysis of the deposited data

Results flagged for a closer look

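PEG10 at its promoter had 31.5 CPM in bIP replicate 3, apart from the other bIP libraries at 43.0 to 46.6 CPM, a gap of 0.765 of the group's range. It was the only 1 of 66 groups of promoter values whose lowest or highest library stood so far out. Chance gives about 1 in 20, so 1 of 66 is no more than chance gives.

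In 12 regions the change of the second over the first series differed between N and bIP by a test of the difference itself (edgeR quasi-likelihood test, Benjamini-Hochberg over all regions; 8.63% of 139 against 8.32% of all regions). None of them was a promoter region. This count is 7 without bIP replicate 1, 6 without bIP replicate 3, 3 without bIP replicate 5, 4 without N replicate 2 and 28 without N replicate 4. Values here are the log2 change in N minus that in bIP.

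In 3 regions the change was more positive in N. SGCE at 27140 bp differed by 2.39 (2.41 in N, 0.02 in bIP), GRB10 at 51273 bp by 1.61 (0.86 in N, -0.75 in bIP) and UBE3A at 65191 bp by 2.68 (1.05 in N, -1.63 in bIP).

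In 9 regions the change was more negative in N. The KCNQ1 cluster held 4 of them. KCNQ1 at 77413 bp differed by -1.96 (-1.39 in N, 0.57 in bIP), KCNQ1 at 73855 bp by -1.65 (-1.01 in N, 0.64 in bIP), KCNQ1OT1 at 4602 bp by -2.18 (-1.30 in N, 0.88 in bIP) and KCNQ1OT1 at 34577 bp by -1.59 (-1.83 in N, -0.24 in bIP). INPP5F at 18623 bp differed by -1.31 (-1.06 in N, 0.25 in bIP) and H19 at 38734 bp by -1.08 (-0.41 in N, 0.67 in bIP). UBE3A at 30061 bp differed by -1.56 (-0.92 in N, 0.64 in bIP), UBE3A at 41923 bp by -0.89 (-0.27 in N, 0.62 in bIP) and DLK1 at 12160 bp by -0.94 (-0.25 in N, 0.69 in bIP).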

How the results depend on the processing

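The PEG3 regions kept their direction and their call in every alternative run. With the replicate number as a block, the count of called regions was 40 for bIP against aRG, 2 for bIP against bRG, 23 for N against bRG, 3 for the second against the first series (the 3 of PEG3), 12 for the series in bIP and 9 for the series in N, and 1 region within 250 kb of PEG3 was higher. Deviations from cell type means correlated over 0.1 in 7 of 8 same-numbered pairs within a series, in 13 of 26 differently numbered pairs within a series and in 0 of 8 same-numbered pairs across series. With the means of cell type and series taken out, 1 of 7 same-numbered pairs was over 0.1 (r -0.207 to 0.125), so the numbers were not taken to pair libraries, and replicates 4 and 5 exist in the second series only, or in N and bIP only, so the block also takes up the series. Under the block FAM50B at 19007 bp in bIP was at 0.00011 and HTR2A in N at 0.0914, on the other side of 0. With the second series alone the count for bIP against aRG was 29, and MKRN3 at 405 bp was at 0.17. The DESeq2 Wald test called 13 regions for the series in N. With loess offsets, N against aRG was at 0.0079 for LIN28B and 0.0034 for SETDB1, again across 0. The cause of these changes was not tested.

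With each library left out, the counts ran from 57 to 78 for N against aRG, 55 to 71 for N against bIP, 47 to 71 for N against bRG, 49 to 70 for bIP against aRG, 24 to 55 for bIP against bRG, 22 to 32 for the series, 10 to 34 for the series in N, 11 to 46 for the series in bIP and 3 to 28 for the difference between N and bIP. For bRG against aRG the count stayed 0. Of 116 calls of named regions, 58 held in every alternative, 35 were lost without at least 1 library and 55 under at least 1 other alternative.

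The median of all regions for N against aRG was 0.18 with TMM and 0.05 with DESeq2 size factors. Depth limits the low regions: 3 counts are 0.113 to 0.208 CPM.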
